A study of Mus musculus with 24 samples.

Results

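Levels of 10 messenger RNAs that mark the main neurons of the cerebellar cortex were compared between Polr3a mutant and wild type mice. The 10 were found by their gene symbols among the 54532 genes of the deposited count tables: Pcp2, Calb1, Car8, Slc1a6, Ppp1r17 and Rgs8 for Purkinje cells, and Cbln1, Cbln3, Fat2 and Neurod1 for granule cells. All 10 symbols were found, each on 1 row. Polyadenylated RNA was sequenced from C57BL/6J mice in which tamoxifen at postnatal day 28 (P28) induced expression of a mutation of Polr3a, the gene of the largest subunit of RNA polymerase III, and from wild type mice that received tamoxifen too. The 24 libraries form 6 groups of 4, mutant and wild type for each of cerebellum at P42, cerebrum at P42 and cerebrum at P75, which is 14 days after tamoxifen at P42 and 47 days at P75. At P42 the mutant cerebellum group held 2 males and 2 females, the wild type cerebellum group 3 males and 1 female, and each cerebrum group 2 males and 2 females, while all P75 libraries came from males. The mice were fed ad libitum. The labels name neither the promoter or Cre line that drives recombination nor the Cre status of the wild types, and they do not say that each library came from a separate animal, so the p-values below measure the spread between libraries.

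Purkinje cells are the large inhibitory neurons whose axons are the only output of the cerebellar cortex. Granule cells, the most numerous neurons of the brain, receive mossy fibre input and excite Purkinje cells through parallel fibres. The cerebellins that granule cells secrete hold the parallel fibre synapse together by bridging presynaptic neurexin and the postsynaptic receptor GluD2 on the Purkinje cell. Levels are given as CPM, that is, counts scaled to a library total of 1000000 after TMM correction of the library size.

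Total counts were 13832721 to 23175864 per library, and no pair of libraries held identical counts. Polr3a itself had between 40.3 and 56.6 CPM in the 8 cerebellum libraries and did not separate the genotypes (43.0 to 54.8 in mutants, 40.3 to 56.6 in wild types). Esr1 was at 39.7 to 132 CPM in the 12 mutant libraries and at 1.59 to 10.02 CPM in the 12 wild types, without overlap. Tbr1, a transcription factor of cortical neurons, had at most 1.63 CPM in cerebellum and at least 7.72 CPM in cerebrum. Before any comparison, 2 cerebrum libraries at P42 stood apart, wild type replicate 1 and mutant replicate 4. Several of the cerebellar genes were far higher in both than in the rest. Genotype results in cerebrum that rest on them are given with and without both. Other results that rest on them are given with 1 of them left out. The cerebellum libraries differed in their content of brainstem transcripts, which is described beside the results that it moves with.

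The RefSeq promoter table (GRCm38.p6) holds an upstream window for 6 of the 10 genes. The windows of 2 Purkinje genes and 1 granule gene are shown here as examples. Each is written 5′ to 3′ on the strand of its gene and ends just before the annotated gene. Pcp2 lies at chr8:3625548-3625797 on the minus strand, Slc1a6 at chr10:78780246-78780495 on the plus strand and Cbln3 at chr14:55884393-55884506 on the minus strand. Capitals mark matches to AGGTCA, the core half-site of nuclear receptors such as ROR alpha, which Purkinje cells express, or to CAGATG or CAGCTG, E-boxes of the kind that NEUROD1 binds.
Pcp2: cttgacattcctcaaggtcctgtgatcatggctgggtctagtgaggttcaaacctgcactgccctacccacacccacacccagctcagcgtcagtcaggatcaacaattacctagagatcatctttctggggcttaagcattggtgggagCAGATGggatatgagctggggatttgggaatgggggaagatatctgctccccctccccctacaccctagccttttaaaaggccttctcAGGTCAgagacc
Slc1a6: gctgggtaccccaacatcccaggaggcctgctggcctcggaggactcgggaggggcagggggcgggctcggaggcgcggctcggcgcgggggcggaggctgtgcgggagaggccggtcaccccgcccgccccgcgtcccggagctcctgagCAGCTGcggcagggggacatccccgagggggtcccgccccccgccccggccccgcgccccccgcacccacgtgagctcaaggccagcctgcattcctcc
Cbln3: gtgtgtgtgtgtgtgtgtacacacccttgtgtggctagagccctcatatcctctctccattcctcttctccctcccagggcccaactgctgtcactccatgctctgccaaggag
Both strands were searched. The Pcp2 window held 1 AGGTCA, which began 12 bases before the start, and 1 CAGATG, which began 100 bases before it. The Slc1a6 window held 1 CAGCTG, 99 bases before the start, and the Cbln3 window of 114 bases held no match. The windows of Rgs8 (238 bases) and Neurod1 (135 bases), searched but not shown, held no match either. Of all 32851 windows cut to 250 bases, 14.02% held AGGTCA, 14.4% held CAGATG and 13.001% held CAGCTG. In windows cut to 114 bases these shares were 6.60%, 6.90% and 5.69%. The matches describe the letters of these windows only.

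The first comparison asked how far each gene was a cerebellar gene in these libraries, from the wild types at P42. All 10 genes were higher in cerebellum than in cerebrum, with all 4 cerebellum libraries above all 4 cerebrum libraries for each gene (edgeR's quasi-likelihood test, adjusted p between 1.47e-06 and 0.00106). In this comparison 30.5% of 17964 genes passed the threshold of 0.05, 14.1% in the direction of the members, and the libraries of the regions did not overlap for 36.4%.

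Among the Purkinje genes the difference was smallest for Calb1, which encodes the calcium buffer calbindin and is also made by forebrain neurons. Calb1 (ENSMUSG00000028222, chromosome 4, 15881264 to 15908064, mm10) had 546 ± 105 CPM in cerebellum and 143 ± 18.9 CPM in cerebrum (SD, n = 4 each), a log2 fold change of 1.98 ± 0.18 (SE). Rgs8 (ENSMUSG00000042671, chromosome 1, 153653025 to 153700323), a regulator of G protein signalling that shortens receptor signals, had 768 ± 183 and 139 ± 21.8 CPM (2.46 ± 0.20). Every cerebrum library at P42 held these 2 genes at 15.2% or more of their wild type cerebellum mean. Slc1a6 (ENSMUSG00000005357, chromosome 10, 78780496 to 78814765), the glutamate transporter EAAT4 of Purkinje spines, had 107 ± 24.9 and 9.47 ± 3.44 CPM (3.50 ± 0.27).

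The remaining Purkinje genes had wider regional differences. Car8 (ENSMUSG00000041261, chromosome 4, 8143362 to 8239041), a carbonic anhydrase-like protein that binds the IP3 receptor, had 781 ± 173 CPM in cerebellum and a log2 fold change of 4.78 ± 0.52. Ppp1r17 (ENSMUSG00000002930, chromosome 6, 56017497 to 56032689), a phosphatase inhibitor also called G-substrate, had 97.1 ± 17.5 CPM and 5.61 ± 0.64. Pcp2 (ENSMUSG00000004630, chromosome 8, 3623371 to 3625545), which binds inhibitory G proteins, had 106 ± 21.3 CPM and 5.80 ± 0.79. Pcp2 had no count at all in wild type cerebrum replicate 4, where 3 counts would have been 0.162 CPM.

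Among the granule genes, Neurod1 (ENSMUSG00000034701, chromosome 2, 79452521 to 79456751), a transcription factor of neuronal differentiation that the dentate gyrus also expresses, had 276 ± 63.4 CPM in cerebellum and 13.5 ± 4.07 CPM in cerebrum, a log2 fold change of 4.32 ± 0.26. Cbln1 (ENSMUSG00000031654, chromosome 8, 87468405 to 87472609), the cerebellin that GluD2 binds, had 567 ± 92.4 and 21.2 ± 10.4 CPM (4.72 ± 0.40). Fat2 (ENSMUSG00000055333, chromosome 11, 55250609 to 55336564), an atypical cadherin of parallel fibres, had 781 ± 210 CPM in cerebellum (7.08 ± 1.05). Cbln3 (ENSMUSG00000040380, chromosome 14, 55878913 to 55884392), a cerebellin that is secreted together with Cbln1, had 997 ± 190 CPM in cerebellum (7.15 ± 1.17). Fat2 and Cbln3 thus had the widest regional difference of the 10 and also the largest standard errors.

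The size of these differences moved when either of 2 libraries was left out. Wild type cerebellum replicate 4 was the only female of its group. With sex in the fit, leaving it out left only males to give the regional difference, wild type cerebrum replicate 1 among them. Without wild type cerebrum replicate 1 the log2 fold change was 10.18 for Cbln3, 9.19 for Fat2, 7.90 for Pcp2, 7.21 for Ppp1r17 and 5.89 for Car8, and without wild type cerebellum replicate 4 it was 5.70, 5.69, 4.68, 4.91 and 4.38; all 10 genes passed in each of these fits.

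Per kilobase of gene length, a scale on which genes can be compared, the level in wild type cerebellum was highest for Cbln3, at 205 ± 39.1 CPM per kilobase, Car8 at 203 ± 44.9 and Cbln1 at 187 ± 30.4, and the libraries of these 3 overlapped. Calb1 (113 ± 21.6), Neurod1 (101 ± 23.2) and Rgs8 (79.7 ± 19.0) followed, with a gap only between Cbln1, whose lowest library had 142, and Calb1, whose highest had 139.96. Pcp2, Ppp1r17, Fat2 and Slc1a6 had 58.2 ± 11.6, 55.2 ± 9.97, 53.7 ± 14.5 and 49.9 ± 11.6, and each neighbour in this order overlapped the next.

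Some counts may be shared with genes at the same place, since the sources used here do not say whether the counting used strand. Cbln1 overlaps Gm2694, a noncoding RNA gene on the other strand, which had 10280 counts over all libraries against 77856 for Cbln1. Pcp2 overlaps Pet100 on the other strand, with 2751 counts against 13582. Neurod1 overlaps Cerkl on its own strand and a noncoding RNA gene on the other, and the larger of these had 1263 counts against 37176.

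The comparison of mutant with wild type cerebellum at P42, 14 days after induction, addressed whether the genes of these neurons changed. No member passed the test, and the mutant libraries spread to both sides of the wild types. Pcp2 had 167, 53.6, 116 and 41.2 CPM in mutant replicates 1 to 4 and 98.0, 120, 80.4 and 127 CPM in wild type replicates 1 to 4. Replicate 1 was thus above every wild type, replicates 2 and 4 were below every wild type, and replicate 3 lay among them. Its log2 fold change was -0.15 ± 0.41 (95% interval -1.08 to 0.78, adjusted p = 0.999, edgeR).

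The other Purkinje genes had the same layout. Car8 had 1096, 412, 1030 and 269 CPM in the mutants and 763, 1022, 611 and 730 CPM in the wild types, a log2 fold change of -0.10 ± 0.44. Slc1a6 had 159, 62.4, 131 and 51.1 CPM against 117, 111, 71.7 and 129 CPM (-0.08 ± 0.37). For both genes, mutant replicates 1 and 3 lay above every wild type and replicates 2 and 4 below every wild type. Calb1 had 741, 336, 675 and 249 CPM against 555, 678, 423 and 527 CPM (-0.08 ± 0.35). Rgs8 had 1104, 451, 969 and 335 CPM against 718, 1027, 596 and 731 CPM (-0.05 ± 0.39). Here only replicate 1 was above all wild types, with replicate 3 next to the highest of them. Ppp1r17 had 174, 57.2, 118 and 40.5 CPM against 89.6, 122, 81.3 and 95.6 CPM, and was the only member with an estimate above 0 (0.07 ± 0.41).

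The granule genes did not differ from this. Cbln1 had 721, 357, 651 and 190 CPM in mutant replicates 1 to 4 and 582, 628, 432 and 626 CPM in the wild types, a log2 fold change of -0.21 ± 0.38. Cbln3 had 1438, 627, 1209 and 362 CPM against 1064, 1174, 728 and 1023 CPM (-0.09 ± 0.40). Replicates 1 and 3 were above all wild types for both cerebellins. Fat2 had 883, 444, 935 and 204 CPM against 809, 989, 489 and 835 CPM, the lowest estimate of the 10 (-0.32 ± 0.45, 95% interval -1.34 to 0.71). Neurod1 had 288, 191, 360 and 100 CPM against 307, 343, 197 and 255 CPM (-0.19 ± 0.37). For Fat2 no mutant library lay above all wild types, and for Neurod1 only replicate 3 did.

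**Figure D1:**
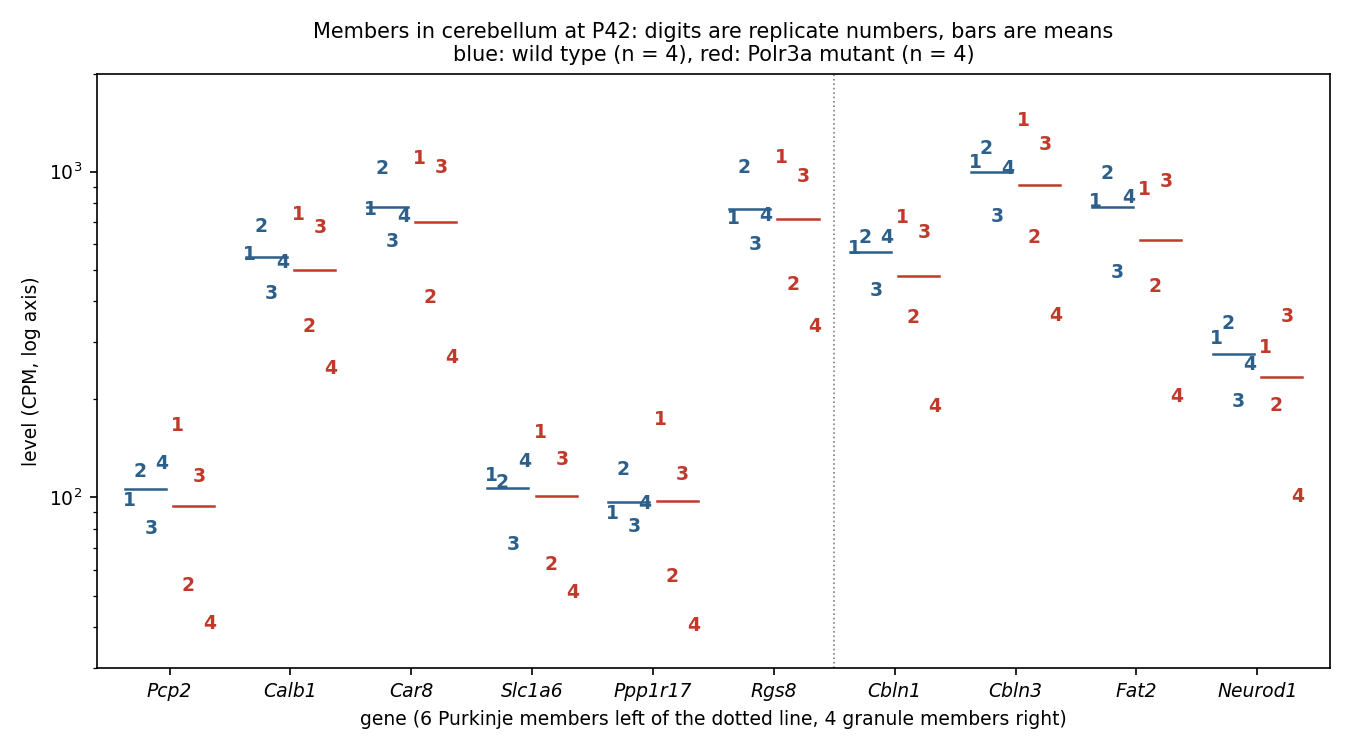
Level of each member in the 8 cerebellum libraries at P42, in CPM on a log axis; each digit is the replicate number of a library (blue, wild type; red, mutant) and each bar a group mean (n = 4). Red 2 and 4 lie below all blue digits for all 10 genes, and red 1 lies above them for 8.

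Over the 10 genes, the lowest mutant library was replicate 4 for all 10 and the highest was replicate 1 for 8 (replicate 3 for Fat2 and Neurod1). Replicates 2 and 4 were below every wild type for 10 of 10 genes each, replicate 1 was above every wild type for 8, and replicate 3 for 5. How many of all genes lay outside the wild type range in these libraries was not counted. The wild types were ordered too: replicate 3 was the lowest for all 10 genes, and replicate 2 the highest for 8. The highest mutant library exceeded the lowest by 2.97-fold (Calb1) to 4.58-fold (Fat2), and the highest wild type exceeded the lowest by 1.45-fold (Cbln1) to 2.02-fold (Fat2). Among the mutants, replicates 1 and 2 were males and replicates 3 and 4 females; among the wild types only replicate 4 was a female.

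No member was called in cerebellum by edgeR, where 0.0114% of 17616 genes passed, and none had an unadjusted p under 0.05, which 4.65% of genes had. For no member did the groups fail to overlap, as they did for 3.36% of genes. DESeq2 called none of the 10 and 0.233% of genes, and the authors' deposited table has none of the 10 under 0.05, with log2 fold changes of -0.33 (Fat2) to 0.01 (Ppp1r17). The estimates ran from -0.32 to 0.07, with 9 of 10 below 0 and a median of -0.09, against a median of 0.01 over all genes. With 95% intervals between -1.34 and 0.99, a log2 fold change of 1 lay outside the interval of every member, while one of -1 lay inside it for 5 of the 10.

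Direction depended on single libraries. Without mutant replicate 2 the estimates ran from -0.13 to 0.34, and without mutant replicate 4 from -0.08 to 0.27. Without mutant replicate 1 they ran from -0.80 to -0.37, and without mutant replicate 3 from -0.70 to -0.17. Leaving out wild type replicate 2 gave -0.19 to 0.16, and leaving out wild type replicate 4 gave -0.23 to 0.25. The latter was the only wild type female. With sex in the fit, leaving it out left the males alone to give the genotype estimate. Leaving out wild type replicate 3 gave -0.47 to -0.02. In these 7 fits, as without wild type replicate 1 (-0.32 to 0.00), no member was called.

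Purkinje and granule genes moved as one across the 8 cerebellum libraries. The mean log2 level, taken as log2(CPM + 0.5), of the 6 Purkinje genes was 8.65, 7.25, 8.35 and 6.81 in mutant replicates 1 to 4 and 8.03, 8.34, 7.68 and 8.11 in the wild types. That of the 4 granule genes was 9.49, 8.54, 9.49 and 7.60 in the mutants and 9.29, 9.47, 8.71 and 9.25 in the wild types. The difference between these means, Purkinje minus granule, was -0.84, -1.29, -1.14 and -0.79 in the mutants and -1.26, -1.12, -1.03 and -1.14 in the wild types, a far narrower range than that of either mean. In bulk tissue, fewer cells of a type and less RNA per cell cannot be told apart.

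Other genes known for these cells were read from lists of 24 further Purkinje genes and 16 further granule genes. None was called in cerebellum. Of the Purkinje list 16 of 24 had an estimate below 0, with a median of -0.14, and of the granule list 13 of 16, with a median of -0.11. Ebf2, a transcription factor of a subset of Purkinje cells, had the smallest p of the Purkinje list and an estimate above 0: it had 17.2, 10.4, 9.56 and 10.3 CPM in the mutants and 6.59, 13.1, 7.92 and 7.17 CPM in the wild types (log2 fold change 0.55 ± 0.26, adjusted p = 0.967). Plcb3, a phospholipase of metabotropic glutamate signalling, had 55.5, 33.5, 45.6 and 27.6 CPM in the mutants, with a log2 fold change of -0.43 ± 0.23 (adjusted p = 0.967). Grin2c, the NMDA receptor subunit of mature granule cells, had 525, 229, 447 and 189 CPM (-0.31 ± 0.34). In Plcb3 and Grin2c, mutant replicates 2 and 4 were again the lowest of the mutants. Their summed levels were 4882 to 9942 CPM in mutants and 6614 to 8566 CPM in wild types for the Purkinje list, and 2124 to 5890 against 3550 to 5137 CPM for the granule list.

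Of 10452 genes with at least 10 CPM in wild type cerebellum, those whose log2 level across the 16 libraries at P42 ran closest to the mean of the Purkinje members were Atp2a3, Skor2 and Cdh15, with mean absolute differences of 0.14, 0.16 and 0.23 after centring. Atp2a3 encodes a calcium pump of the endoplasmic reticulum and Skor2 a corepressor of Purkinje cells. The members themselves differed from their own mean by 0.45 to 1.04. For the granule mean the closest were Cnpy1, Crtam and Il20rb, at 0.33, 0.38 and 0.63, with 0.75 to 1.22 for the members. Of the 16 libraries 8 are cerebrum, so the regional difference enters these distances.

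The summed level of brainstem transcripts ran largely opposite to the members in cerebellum. A list of 13 brainstem markers, among them genes of serotonin and noradrenaline neurons and hindbrain Hox genes, had a summed level of 4.47, 110, 20.1 and 146 CPM in mutant replicates 1 to 4. In wild type replicates 1 to 4 the sum was 63.0, 43.5, 116 and 39.7 CPM. The 3 libraries with the most brainstem transcripts, mutant replicates 4 and 2 and wild type replicate 3, are those with the lowest levels of the members in their groups, and mutant replicate 1, with the least, had the highest level of 8 members. Tph2, the enzyme of serotonin synthesis, had 1.08, 20.8, 2.91 and 32.4 CPM in the mutants and 6.52, 2.66, 17.7 and 3.84 CPM in the wild types. The Hox genes given here did not share this order. In mutant replicates 1 to 4, Hoxb4 had 0.339, 0.516, 1.59 and 5.04 CPM and Hoxa3 0, 1.60, 1.89 and 6.37 CPM. Hoxb5 had 0.271, 1.65, 2.51 and 18.5 CPM and Hoxa5 0.271, 2.37, 3.22 and 14.8 CPM. Mutant replicate 2 was thus below mutant replicate 3 for each of these genes. It was also below wild type replicate 2, which had 1.86, 2.66, 4.79 and 5.86 CPM of them. In mutant replicate 2, Slc6a2 had 32.7 CPM and Dbh 26.1 CPM. Of the 13 markers 4, Hoxa3 among them, were at 0 in mutant replicate 1 and 1 was at 0 in mutant replicate 3; the other 6 libraries had counts of all 13. Between the genotypes, 0 of 12 tested markers were called, with a median log2 fold change of -0.32.

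**Figure D2:**
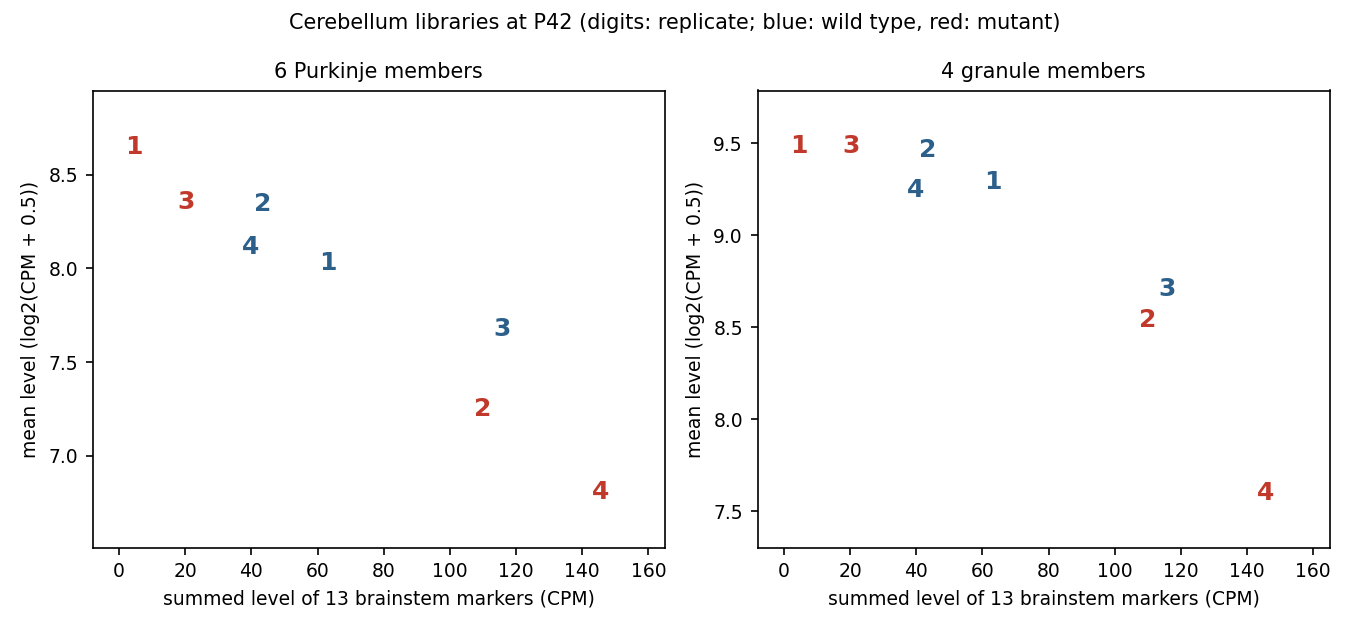
Mean level of the Purkinje members (left) and granule members (right), in log2(CPM + 0.5), against the summed CPM of 13 brainstem markers in the 8 cerebellum libraries; digits are replicate numbers (blue, wild type; red, mutant). Mutant replicate 1, at the left with 4.47 CPM of brainstem markers, has the highest Purkinje mean and shares the highest granule mean (9.49) with mutant replicate 3, and mutant replicate 4, at the right with 146 CPM, has the lowest of both.

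In a fit with the mean log2 level of the brainstem markers as a covariate, an alternative chosen after seeing the data, the estimates of all 10 members were below 0, and 2 passed. Slc1a6 fell by 0.52 ± 0.09 on the log2 scale (adjusted p = 0.0228) and Pcp2 fell by 0.69 ± 0.12 (adjusted p = 0.0233), where 1.46% of all genes passed. The other 8 had estimates of -0.46 (Ppp1r17) to -0.80 (Fat2) and adjusted p-values from 0.0554 (Cbln1) to 0.219 (Neurod1). The median of the 10 was -0.54, against -0.01 over all genes. Standard errors were 0.09 to 0.20, compared with 0.35 to 0.45 without the covariate. Of the further lists, 7 of 24 Purkinje genes and 3 of 16 granule genes were called, all lower, with medians of -0.47 and -0.45. Lists of other cells had lower calls in the same fit too: 2 of 7 Bergmann glia genes (median -0.38), 6 of 16 choroid plexus genes (median -1.28), 2 of 7 blood genes (median -2.49) and 1 each of 12 interneuron, 7 forebrain neuron and 9 dentate gyrus genes. The ATF4 targets had 2 of 14 called higher, and the brainstem list 1 of 12.

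The direction of this fit did not rest on 1 library: all 10 estimates were below 0 with any of the 8 libraries left out. On its log2 scale the covariate was -0.38, 2.16, 0.84 and 3.09 in mutant replicates 1 to 4. In wild type replicates 1 to 4 it was 1.55, 1.55, 2.81 and 1.56. Mutant replicate 1, the lowest, had 4 markers without a count. Leaving out libraries does not test this scale. A fit with the summed level of the markers was not run, so whether the direction depends on the scale was not tested. The number called did rest on single libraries. It was 0 without mutant replicate 2, mutant replicate 4, wild type replicate 2 or wild type replicate 4, 1 (Pcp2) without wild type replicate 1, 5 without mutant replicate 1 and 9 without mutant replicate 3. Over all genes the number called moved too. It was 868 of 18084 without mutant replicate 1, 638 of 17734 without mutant replicate 3 and 27 of 18121 without wild type replicate 1. Without mutant replicate 2 or 4 it was 81 of 17734 and 46 of 17729. Without wild type replicate 2 or 4 it was 22 of 18069 and 2 of 17721. Without wild type replicate 4 no wild type female was left, so the genotypes were compared within males only. The level of the brainstem markers is itself measured in the same libraries, and the fit spends 4 coefficients on 8 of them. With the choroid plexus level as the covariate in its place, estimates ran from -0.59 (Neurod1) to -1.34 (Pcp2) and none was called. That level did not overlap between the genotypes (a mean log2 level of 1.18 to 4.11 in mutants and 4.53 to 5.02 in wild types), so it and the genotype cannot be told apart and this fit says nothing on the direction.

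**Figure D3:**
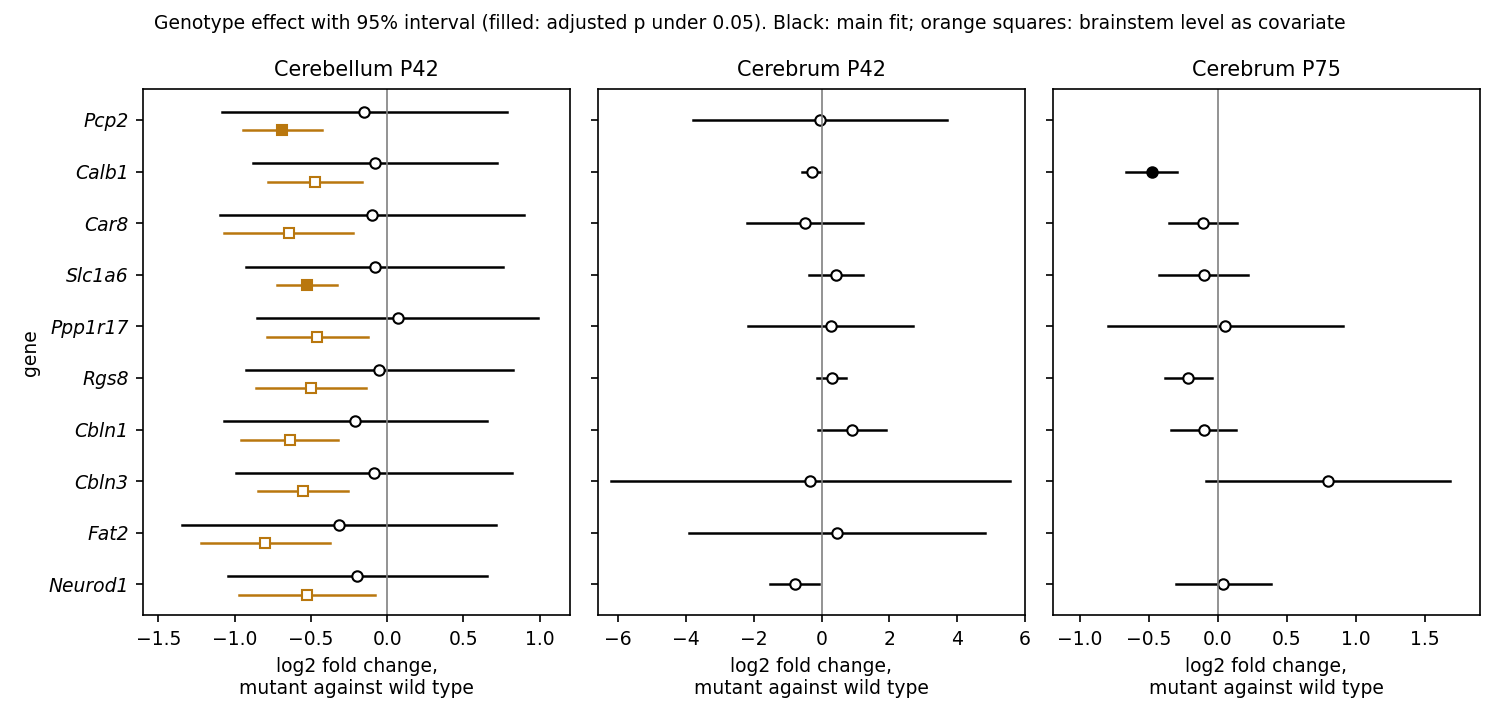
Log2 fold change of each member, mutant against wild type, with its 95% interval in cerebellum at P42 (left), cerebrum at P42 (middle) and cerebrum at P75 (right); the scales of the x axes differ. Filled symbols passed an adjusted p of 0.05: Pcp2 and Slc1a6 in the fit with the brainstem covariate (orange squares), and Calb1 in cerebrum at P75.

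Other transcripts differed between the same libraries. Choroid plexus markers summed to 143 CPM in mutant replicate 1, 1352 to 1829 CPM in the other mutants and 2381 to 3658 CPM in wild types, and all 16 had an estimate below 0. The mean log2 level of 14 targets of the stress factor ATF4 was 4.97 and 4.52 in mutant replicates 1 and 3, 3.86 and 3.87 in replicates 2 and 4, and 3.63 to 3.75 in wild types. It was thus highest in the mutants with the highest members. Oligodendrocyte markers summed to 6299, 16222, 10118 and 15184 CPM in mutant replicates 1 to 4 and to 8774 to 13741 CPM in wild types. The part of the choroid plexus, stress and oligodendrocyte transcripts in the members' levels was not tested.

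In cerebrum at P42 no member was called either, where 0.0165% of 18205 genes passed, and 2 of 10 had an unadjusted p under 0.05, which 12.6% of genes had. DESeq2 called 0 members and 1.3% of genes. Calb1 had 128, 119, 105 and 108 CPM in mutant replicates 1 to 4 and 145, 160, 116 and 151 CPM in the wild types. Its log2 fold change was -0.29 ± 0.13 (adjusted p = 0.393), and 2 mutants lay below all wild types. Neurod1 had 7.97, 10.9, 3.96 and 8.47 CPM against 18.7, 9.81, 10.7 and 14.7 CPM. It had a log2 fold change of -0.79 ± 0.32 (adjusted p = 0.380), with 3 mutants below all wild types. For neither gene were the groups apart, as they were for 6.47% of all genes and for 0 members.

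Cbln1 had the highest estimate of the 10 in cerebrum, 0.90 ± 0.44 (adjusted p = 0.424). Its level was 19.4, 32.2, 51.0 and 48.5 CPM in mutant replicates 1 to 4 and 30.9, 6.51, 22.7 and 24.7 CPM in the wild types. Thalamic markers, whose region is known to express Cbln1, summed to 882, 599, 1030 and 938 CPM in the mutants and to 201 to 396 CPM in the wild types, without overlap. Mutant replicates 3 and 4 were highest in both. Replicate 1, with 882 CPM of thalamic markers, had the lowest Cbln1 of the mutants (19.4 CPM), below replicate 2 (32.2 CPM). The part of thalamic tissue in the Cbln1 level was not tested. Rgs8 had 139, 133, 179 and 226 CPM against 169, 134, 117 and 135 CPM (0.30 ± 0.19), and Slc1a6 5.79, 10.5, 16.04 and 15.8 CPM against 12.8, 6.19, 12.04 and 6.84 CPM (0.43 ± 0.35). All 3 genes were highest in mutant replicates 3 and 4, where forebrain markers such as Tbr1 were lowest (7.72 and 9.28 CPM, against 75.8 CPM or more in the other 6 libraries). Since the thalamic level did not overlap between the genotypes, level and genotype cannot be told apart, and the estimates of a fit with that level as a covariate carry no information on the members. Without a filter on low counts edgeR called 2 members, Cbln1 and Neurod1, where 3.83% of genes passed. Their estimates hardly moved, to 0.92 (adjusted p = 4.25e-05) and -0.78 (adjusted p = 0.0215). In the comparison of the regions, Cbln3 had 7.15 with and without the filter. Its adjusted p in edgeR went from 0.00106 to 9.15e-293. Calls without a filter are therefore not taken as evidence of a change.

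Several members were far higher in 2 of the cerebrum libraries than in the rest. Cbln3 had 37.1 CPM in wild type replicate 1 and 15.7 CPM in mutant replicate 4, against 0.229 to 1.59 CPM in the other 6 cerebrum libraries at P42. Fat2 had 27.1 and 15.3 CPM in these libraries, against 0.183 to 3.81 CPM. Car8 had 67.5 and 46.7 CPM, against 9.59 to 17.8 CPM. Each of the 2 libraries lay above all other 6 for 6 of the 10 genes, while neither did for Calb1, Slc1a6 or Cbln1. The same count over all genes was not made. The source of the excess was not tested. Over the median of those 6, the excess in wild type replicate 1 came to 3.64% (Cbln3) and 3.26% (Fat2) of the wild type cerebellum mean for these granule genes, and to 6.14% (Pcp2), 7.19% (Car8) and 5.38% (Ppp1r17) for these Purkinje genes. In mutant replicate 4 it was 1.498% and 1.75% for those granule genes and 2.96%, 4.53% and 4.08% for those Purkinje genes. For these genes the Purkinje shares were above the granule shares in both libraries. Over all 10 members this held in wild type replicate 1 only. In mutant replicate 4 the granule gene Cbln1 had 4.37%, above Pcp2 and Ppp1r17, and the Purkinje gene Calb1 had -2.91%.

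Brainstem markers summed to 1.94 CPM in wild type cerebrum replicate 1 and to 59.7 CPM in mutant cerebrum replicate 4. Libraries that did not stand apart held them too. The sum was 62.0 CPM in mutant replicate 3, where Cbln3 had 0.94 CPM, and 27.0 and 29.0 CPM in wild type replicates 3 and 4. Gabra6, a receptor subunit gene of granule cells, had 12.4 CPM in wild type replicate 1 and 6.79 CPM in mutant replicate 4. It had at most 0.383 CPM in the other cerebrum libraries at P42. Without both libraries no member was called in cerebrum, Calb1 had -0.17, Neurod1 -0.48 and Cbln1 0.86, and Cbln3 and Fat2 had -0.24 and 1.05, compared with -0.33 ± 2.61 and 0.46 ± 1.94 with all libraries.

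**Figure D4:**
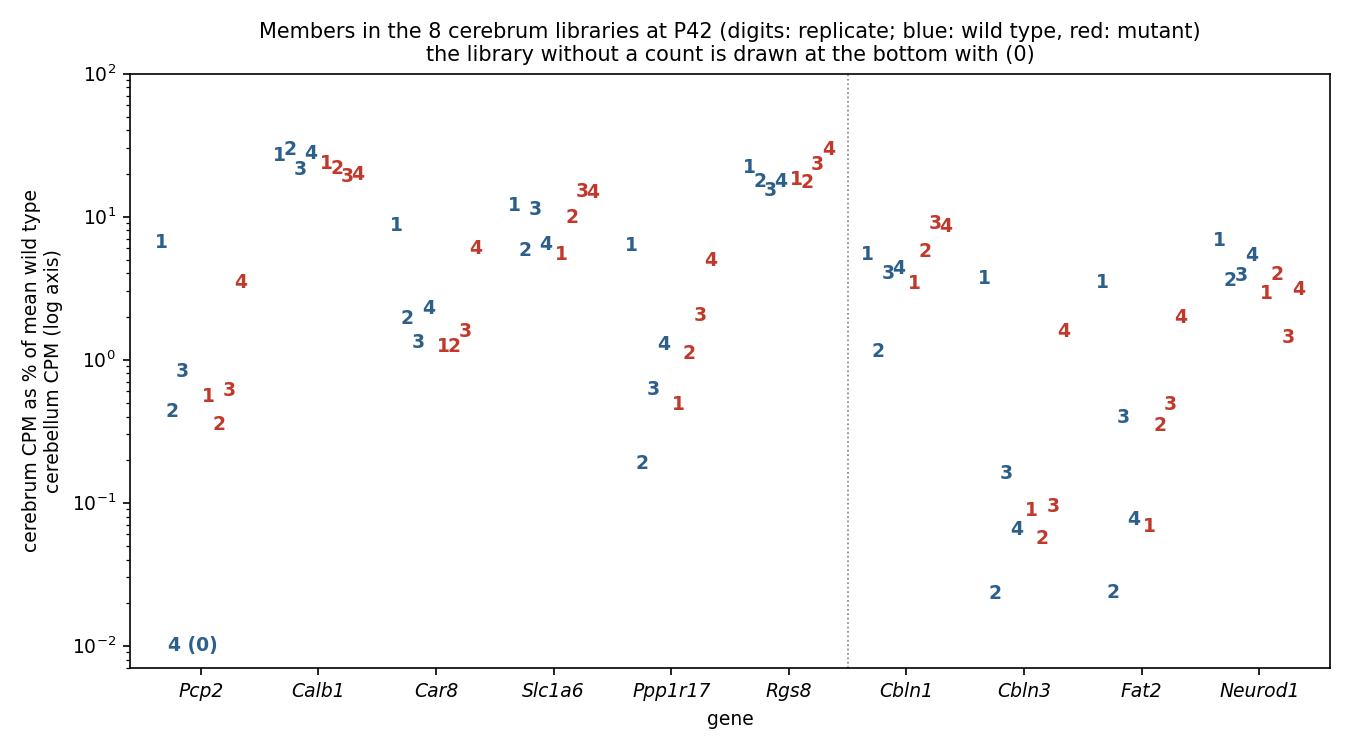
Level of each member in the 8 cerebrum libraries at P42 as a percentage of its mean in wild type cerebellum, on a log axis; digits are replicate numbers (blue, wild type; red, mutant), and the library without a Pcp2 count is drawn at the bottom. Wild type replicate 1 and mutant replicate 4 stand above the rest for Pcp2, Car8, Ppp1r17, Cbln3 and Fat2, while Calb1 and Rgs8 lie at 15.2% to 29.4% in every library.

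Whether the genotype effect differed between the tissues was tested as an interaction over the 16 libraries at P42. The test called 0 of the 10 members and 0 of 19614 genes (0%), and DESeq2 called 7 genes and 0 members. Of all genes 6.18%, and 0 members, had an unadjusted p under 0.05 in edgeR. Estimates, cerebellum minus cerebrum, ran from -1.08 ± 0.61 for Cbln1 (adjusted p = 0.732) to 0.79 ± 1.64 for Cbln3 (adjusted p = 0.911), with 5 of 10 below 0. Without a filter on low counts 1 member was called, Cbln1, where 0.762% of genes passed. The limit given above for calls without a filter holds here too. The intervals were wide: the narrowest, that of Calb1, was -0.64 to 1.01. The estimate of Cbln3 rested on single libraries. It was -2.57 without wild type cerebrum replicate 1 and 3.47 without mutant cerebrum replicate 4, with no member called in either fit.

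In cerebrum at P75, 47 days after induction, 8 of the 10 genes passed the filter on low counts, and Pcp2 and Fat2, with at most 0.553 and 0.453 CPM in any library, did not. The levels come from a table normalized separately from that of P42. Calb1 was the only member called, where 14.3% of 17523 genes passed, 6.62% with a fall. Of the 8 genes 2, Calb1 and Rgs8, had an unadjusted p under 0.05, as had 28.8% of all genes. DESeq2 called 1 of the 8 and 17.6% of genes. It had 101, 98.3, 110 and 105 CPM in mutant replicates 1 to 4 and 130, 171, 136 and 140 CPM in the wild types, so that every mutant lay below every wild type. Calb1 fell by 0.48 ± 0.09 on the log2 scale (95% interval -0.66 to -0.30, adjusted p = 0.00222, edgeR), and by 0.39 to 0.53 with any library left out, each time below the threshold. In the authors' deposited table its log2 fold change is -0.49 with an adjusted p of 1.59e-05.

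Rgs8 had 108, 110, 126 and 125 CPM in the mutants and 126, 129, 149 and 141 CPM in the wild types, with 3 of 4 mutants below all wild types. Its log2 fold change was -0.22 ± 0.08 (adjusted p = 0.0874), which missed the threshold; it passed with the replicate number as a block (adjusted p = 0.0158), a fit in which 20.2% of genes passed. Car8 had 9.91 to 10.58 CPM in mutants and 10.58 to 11.4 CPM in wild types, groups that touched without overlapping, with an estimate of -0.11 ± 0.11 (adjusted p = 0.580). Groups did not overlap for 2 of the 8 members, Calb1 and Car8, and for 20% of all genes. Cbln3 had 0.562 to 1.61 CPM in mutants and 0.460 to 0.854 CPM in wild types, an estimate of 0.80 ± 0.41 at levels close to 1 CPM. Slc1a6, Ppp1r17, Cbln1 and Neurod1 had estimates between -0.10 and 0.05.

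**Figure D5:**
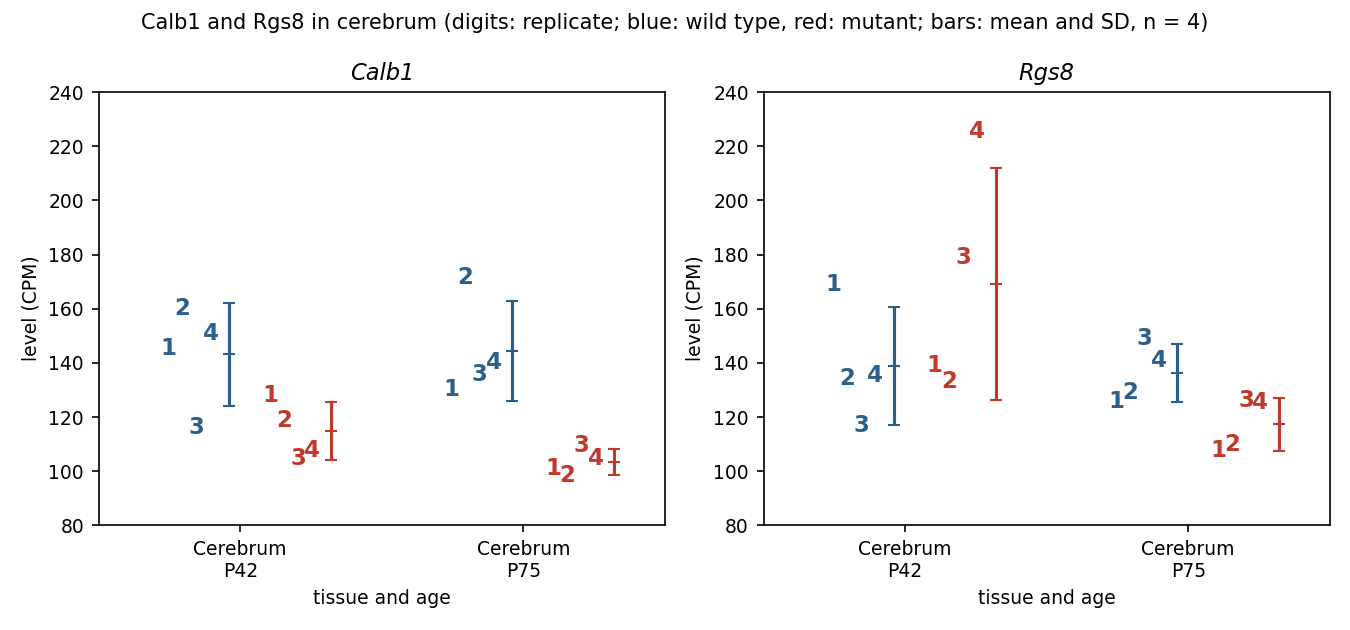
Calb1 (left) and Rgs8 (right) in cerebrum at P42 and P75, in CPM on axes that start at 80 CPM; digits are replicate numbers (blue, wild type; red, mutant), and bars give the mean and SD (n = 4), with each age normalized on its own. At P75 all mutants lie below all wild types for Calb1, and 3 of 4 do for Rgs8.

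Markers of other cells stood beside the Calb1 fall at P75. All 12 forebrain neuron markers had estimates below 0 (median -0.37), 6 of them called, with summed levels of 598 to 816 CPM in mutants and 952 to 1027 CPM in wild types. All 8 striatal markers had estimates below 0 too (median -0.66), 4 of them called. They summed to 280 to 455 CPM in mutants and 463 to 506 CPM in wild types. Microglial markers were called higher for 7 of 10 (445 to 830 CPM against 346 to 365 CPM), and all 14 ATF4 targets rose. Of all 17523 genes tested at P75, 1342 were called higher and 1160 (6.62%) lower. Further Purkinje genes were called lower for 4 of 23 and further granule genes for 4 of 15, all without a call in the other direction. Slc17a7, the vesicular glutamate transporter of both granule and cortical neurons, had 661 to 916 CPM in mutants and 961 to 1091 CPM in wild types. The part of these cells in the Calb1 level was not tested.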

How the data were processed

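Polyadenylated RNA was sequenced from mouse cerebellum and cerebrum. The authors deposited raw counts per gene in 2 tables, one for P42 and one for P75, and reads were aligned with HISAT2 to mm10 and tested with DESeq2, per the submitters' processing notes. Which program counted reads, with which strand setting and gene annotation, is not given in the sources used here. The log2 fold changes and the adjusted p-values of the authors' deposited tables were only set beside the values computed here. Every sample column was mapped by its name, with 0 columns unassigned.

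Counts were filtered with filterByExpr, scaled by TMM and tested with edgeR 4.0.16 (quasi-likelihood test, limma 3.58.1, R 4.3.3), with sex as a covariate at P42, and p-values were adjusted over all genes tested by the Benjamini-Hochberg method, with a threshold of 0.05. DESeq2 1.42.0 was an alternative. The scripts were tested on simulated data. The interaction and each comparison used only the libraries of their groups. Gene length was taken from the deposited tables. Other alternatives were RLE scaling or library size only, no filter or 1 CPM in 4 libraries, no sex term, the replicate number as a block, marker levels as covariates, and each library left out. The covariate of brainstem level, its repeats with a library left out, and the fits without the 2 cerebrum libraries that stood apart were chosen after seeing the data.

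Members and lists were chosen with earlier results of these data known. All members were named, and of each of the 15 other lists up to 3 genes with the smallest p, with Slc17a7 and Grin2c among them. Tbr1 and Gabra6 were named after their values were seen. Genes most like the members had the smallest mean absolute difference from the members' mean log2 level. Replicate numbers were not taken to pair libraries, since not every same-numbered pair had a correlation of deviations above 0.1 in any comparison. Depth was 13832721 to 23175864 counts per library, and the floor of 3 counts covers counting error only.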

Additional observations from a re-analysis of the deposited data

Results flagged for a closer look

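A library stood far from the other 3 of its group in 7 of 60 groups of 4 libraries examined, 1 group for each member, tissue, age and genotype; chance marks about 1 in 20. In each, the gap to the nearest library took up more of the range of the group than the limit of Dixon's test at the 95% level. All 7 were in cerebrum at P42 and in wild type replicate 1 or mutant replicate 4. These libraries had already been singled out because the same genes were high in them. Several members also moved together, so the 60 groups were not independent. The count of 7 thus cannot be set against the rate of 1 in 20. In wild type replicate 1, Pcp2 had 7.06 CPM, Car8 67.5 CPM, Cbln3 37.1 CPM and Fat2 27.1 CPM. In mutant replicate 4, Pcp2 had 3.68 CPM, Car8 46.7 CPM and Cbln3 15.7 CPM. All were higher than the rest of their group.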

How the results depend on the processing

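In cerebellum, the sign of Ppp1r17 turned with the replicate block (-0.20), the choroid plexus covariate (-1.04) and the brainstem covariate (-0.46), and males alone gave Pcp2 0.15, Slc1a6 0.15 and Cbln3 0.066. The brainstem covariate called 2 members, and 0 to 9 with a library left out. Over all genes it called 257, and 2 to 868 with a library left out. In cerebrum at P42, Pcp2 had 0.039 with library size only, 0.21 with DESeq2 and 0.027 without wild type replicate 1 and mutant replicate 4, and Fat2 had -0.45 without the sex term. The thalamic covariate gave Calb1 0.00138, Slc1a6 -1.43, Ppp1r17 -7.00, Rgs8 -0.94, Cbln1 -2.04 and Fat2 -8.13; this level and, in cerebellum, the choroid plexus level did not overlap between genotypes, so these values carry no information. Without a filter 2 members were called there (Cbln1 and Neurod1, with 3.83% of genes), at almost unchanged estimates. At P75, Slc1a6 had 6.27e-05 with library size only, which also moved the median of all genes from 0.00 to 0.11. For the interaction, no filter called 1 member (Cbln1, with 0.762% of genes), and Fat2 had 0.12 without the sex term. Without mutant cerebrum libraries 3 and 4, Slc1a6 had 0.075, Ppp1r17 1.22 and Fat2 1.51. The brainstem covariate gave Calb1 -0.19 and Car8 -0.14, and Pcp2 had -0.31 without those 2 cerebrum libraries. The causes were not tested.

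With each library left out in turn, the log2 fold changes in cerebellum ran from -0.80 to 0.15 for Pcp2, -0.47 to 0.15 for Calb1, -0.58 to 0.18 for Car8, -0.60 to 0.15 for Slc1a6, -0.53 to 0.34 for Ppp1r17, -0.49 to 0.21 for Rgs8, -0.60 to 0.013 for Cbln1 and -0.53 to 0.13 for Cbln3. In cerebrum at P42 they ran from -1.58 to 1.48 for Pcp2, -1.37 to 0.52 for Car8, -0.61 to 1.68 for Ppp1r17, -2.99 to 2.01 for Cbln3 and -1.13 to 2.19 for Fat2. At P75 they ran from -0.14 to 0.32 for Ppp1r17 and -0.071 to 0.18 for Neurod1. For the interaction they ran from -1.68 to 1.79 for Pcp2, -0.15 to 0.39 for Calb1, -0.71 to 1.33 for Car8, -1.64 to 0.81 for Ppp1r17, -2.57 to 3.47 for Cbln3 and -2.48 to 1.25 for Fat2.

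With the replicate block, 2 members were called at P75, Calb1 and Rgs8 (-0.22, adjusted p = 0.0158, edgeR, with 20.2% of genes called), and the interaction gave Pcp2 -0.12 and Cbln3 -0.033. At P75 each mutant correlated best with the wild type of its own number (r from 0.0263 to 0.143), a hint from the data and not the design. The sexes of same-numbered cerebellum and cerebrum libraries differed in 3 of 8 pairs.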
